A study of Homo sapiens with 6 samples.

Results

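Elastic fibres give skin, arteries and lung their recoil. They hold a core of elastin, which is secreted as the soluble precursor tropoelastin, laid down on a scaffold of fibrillin microfibrils and crosslinked by lysyl oxidases. Fibulins bind tropoelastin and the crosslinking enzymes, and microfibril-associated proteins decorate the scaffold. The genes described here are elastin (ELN) and 9 fibre partners, which are the fibrillins FBN1 and FBN2, the fibulins FBLN2, FBLN5, EFEMP1 (fibulin-3) and EFEMP2 (fibulin-4), and the microfibril-associated genes MFAP2, MFAP4 and MFAP5. The list was selected on its measured values in one respect, since ELN was chosen because it was among the genes most raised in this same comparison, so its values are a description and are given with no test. The partners were added by function, with earlier results of these data known. Of the 10 listed genes, 9 had a line in the library tables, which held 27257 genes in all, and 8 were among the 16092 genes tested. FBLN2 had no line and was not analysed here.

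RNA was measured in U87MG, an established human glioblastoma cell line, in cells treated for 24 h with either a control lentivirus or one that overexpresses LMO2. The groups are called U87MG-control and U87MG-LMO2 and hold 3 libraries each. LMO2 is a LIM-domain adaptor protein that joins transcription factors in complexes. Both groups are the same single line and both carry a lentivirus, and reads from the vector and from the cells' own LMO2 gene cannot be told apart in a count per gene. The labels give each library a replicate number without saying that replicates were separate cultures, so the p values measure the spread between these libraries, which may be technical.

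The libraries held 11428432 to 17892955 expected counts, the estimated number of reads assigned to genes. LMO2 had 7, 11 and 5 expected counts in U87MG-control replicates 1 to 3 and 5459, 4503 and 14570 in U87MG-LMO2 replicates 1 to 3, so each library matched its label. U87MG-LMO2 replicate 3 held the most LMO2, at 877.9 CPM (counts scaled to library size) against 333.0 and 307.0 in the other two. Of all genes tested, 760 (4.72%) were called higher and 443 (2.75%) lower in U87MG-LMO2, where a call is an adjusted p under 0.05 in edgeR's quasi-likelihood test with Benjamini-Hochberg adjustment over all genes tested. The glial and mesenchymal marker VIM led the markers of glioma cells, summed over 7 measured genes to 5582 to 5714 FPKM in U87MG-control and 5686 to 6149 in U87MG-LMO2. The astrocyte markers S100B and AQP4 had at most 1 count in any library, and the neural stem cell factor SOX2 at most 4.

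Elastin itself is built from short repeats of hydrophobic amino acids, and the repeat of valine, proline, glycine, valine and glycine is the best known of them. In its coding sequence ELN held 9 copies of the corresponding codons, searched in frame on the coding strand as GTNCCNGGNGTNGGN without overlap, while each of the other 9 listed genes held 0. Among 19590 genes with a coding sequence, 17 (0.0868%) held at least 1 copy, and ELN alone held 3 or more. Counts here were per gene, so they do not show which ELN transcript was expressed. The coding stretch richest in the repeat is shown from the longest annotated coding transcript. It lies in exon 20 of the 2358-base coding sequence at chr7:74056339-74056428 (GRCh38, plus strand, GENCODE v29), with its 3 repeats in capitals:
ELN: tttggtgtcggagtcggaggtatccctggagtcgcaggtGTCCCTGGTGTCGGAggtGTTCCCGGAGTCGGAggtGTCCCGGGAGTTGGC

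ELN was near absent in U87MG-control and reached the FPKM of the fibrillin FBN2 in U87MG-LMO2, and no partner showed a difference of that size. ELN (gene ID 2006, chr7:74027789-74069907) had 6, 22 and 16 expected counts in U87MG-control replicates 1 to 3 and 1305, 934 and 438 in U87MG-LMO2 replicates 1 to 3. As FPKM, which scales reads to gene length and depth, these were 0.13, 0.43 and 0.34 against 23.4, 18.29 and 7.07. All 3 U87MG-LMO2 libraries lay far above all 3 controls, and replicate 3, which held the most LMO2, held the least ELN of its group. On the CPM scale the control mean of ELN was 1.11 ± 0.550 and the LMO2 mean 56.6 ± 27.3 (SD, n = 3 each), a fitted 49.3-fold difference (log2 fold change 5.62, SE 0.50). By log2 fold change ELN ranked 5 from the top of the 16092 genes tested. The control level rests on 22 counts or fewer per library, so the size of the fold is less certain than its direction. The gene length assigned to ELN in the library tables was 3967, 3704 and 3593 bases in U87MG-control and 3428, 3462 and 3426 bases in U87MG-LMO2, which enters the FPKM and not the CPM. An annotated antisense gene, ELN-AS1, overlaps 2709 bases of the ELN gene, counted over whole genes with their introns. The sources used here do not state that counting used strand. Reads from exons within that overlap may therefore not have been assigned by strand, and whether any were shared was not tested.

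**Figure D1:**
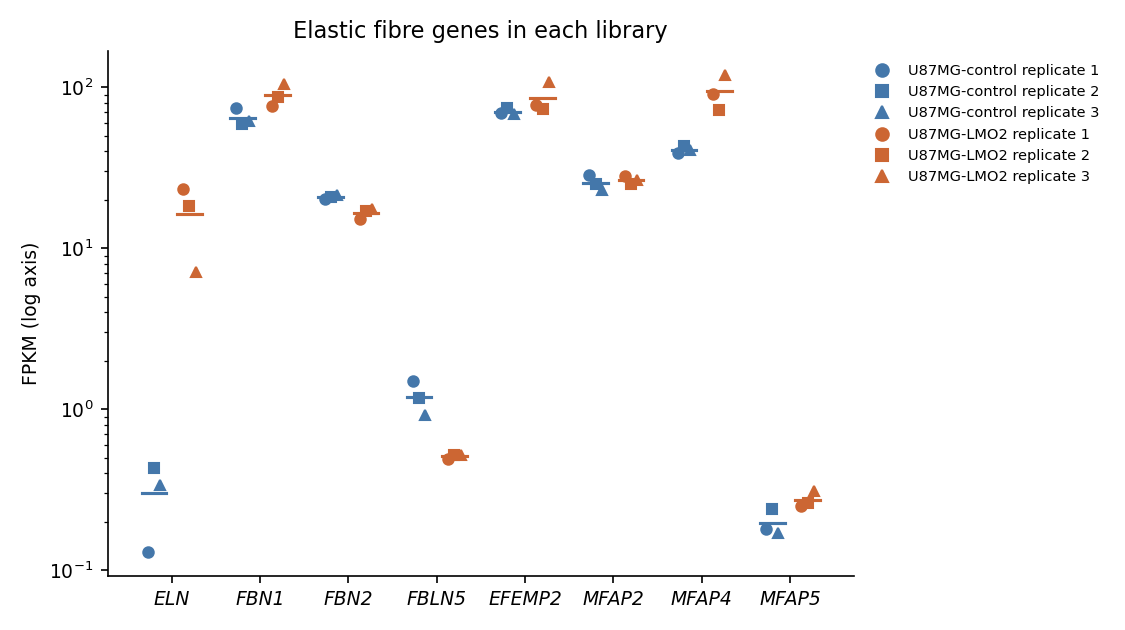
FPKM (log axis) of the 8 tested elastic fibre genes in each library, with U87MG-control in blue, U87MG-LMO2 in orange, one symbol per replicate number and a line at each group mean. ELN moved from 0.300 to 16.3 FPKM on average, next to FBN2, while the ratios of the group means (U87MG-LMO2 over U87MG-control) of the 7 partners ran from 0.426 for FBLN5 to 2.30 for MFAP4.

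Among the 7 partners tested, MFAP4 was called higher and FBLN5 lower, and 5 were not called. That is 1 of 7 in each direction, beside 4.72% of all genes called higher and 2.75% called lower, and nothing is read from so small a list. The median log2 fold change of the 7 partners was 0.35 and their range was -1.22 to 1.26, beside a median of -0.01 over all genes tested. In CPM, all U87MG-LMO2 libraries lay above all controls for 2 partners (FBN1 and MFAP4) and below them for 2 (FBN2 and FBLN5), beside 17.5% and 16.6% of all genes.

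**Figure D2:**
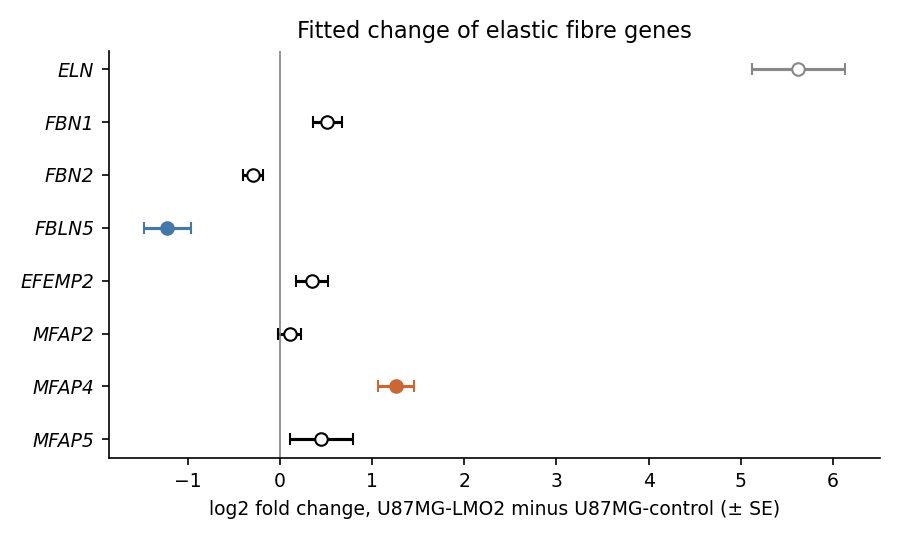
Fitted log2 fold change (U87MG-LMO2 minus U87MG-control) of the 8 tested elastic fibre genes, with bars of 1 SE. MFAP4 (filled, orange, 1.26) and FBLN5 (filled, blue, -1.22) were the partners called, open black points were not called, and ELN (grey, 5.62) is shown as a description.

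The fibrillins are the large glycoproteins that polymerise into the microfibril scaffold, FBN1 being the main form in adult tissue and FBN2 the form best known from development. FBN1 (chr15:48408306-48645849) was already abundant, at 869, 692 and 727 CPM in U87MG-control replicates 1 to 3 and 897, 1029 and 1343 CPM in U87MG-LMO2 replicates 1 to 3. The groups did not overlap, but the gap between control replicate 1 and LMO2 replicate 1 was small. The log2 fold change was 0.51 (SE 0.16), and FBN1 was not called (edgeR adjusted p = 0.0860). FBN1 was called by DESeq2 (adjusted p = 0.0323) and by edgeR without a filter on low counts (adjusted p = 0.0411), so it sits at the edge of the threshold.

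FBN2 (chr5:128257909-128659185) leaned the other way. It had 220, 225 and 229 CPM in U87MG-control and 162, 185 and 205 CPM in U87MG-LMO2. Every U87MG-LMO2 library lay below every control, and replicate 3 came closest to them. The log2 fold change of -0.29 (SE 0.11) was not called (edgeR adjusted p = 0.136), but without U87MG-LMO2 replicate 3 it was -0.37 and passed (adjusted p = 0.0186).

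The FBN1 share of the fibrillin pool was higher in every U87MG-LMO2 library than in any control, though neither fibrillin was called. FBN1 gave 78.4%, 73.8% and 74.4% of the summed fibrillin FPKM in U87MG-control and 83.5%, 83.6% and 85.7% in U87MG-LMO2. In CPM, 17.5% of all genes tested lay wholly above the controls and 16.6% wholly below. No such share was computed for ratios of genes. Set against the same pool, ELN amounted to 0.138%, 0.539% and 0.410% of fibrillin FPKM in U87MG-control and to 25.5%, 17.6% and 5.80% in U87MG-LMO2. Replicate 3 was the lowest of the U87MG-LMO2 libraries in this measure and still above every control.

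**Figure D3:**
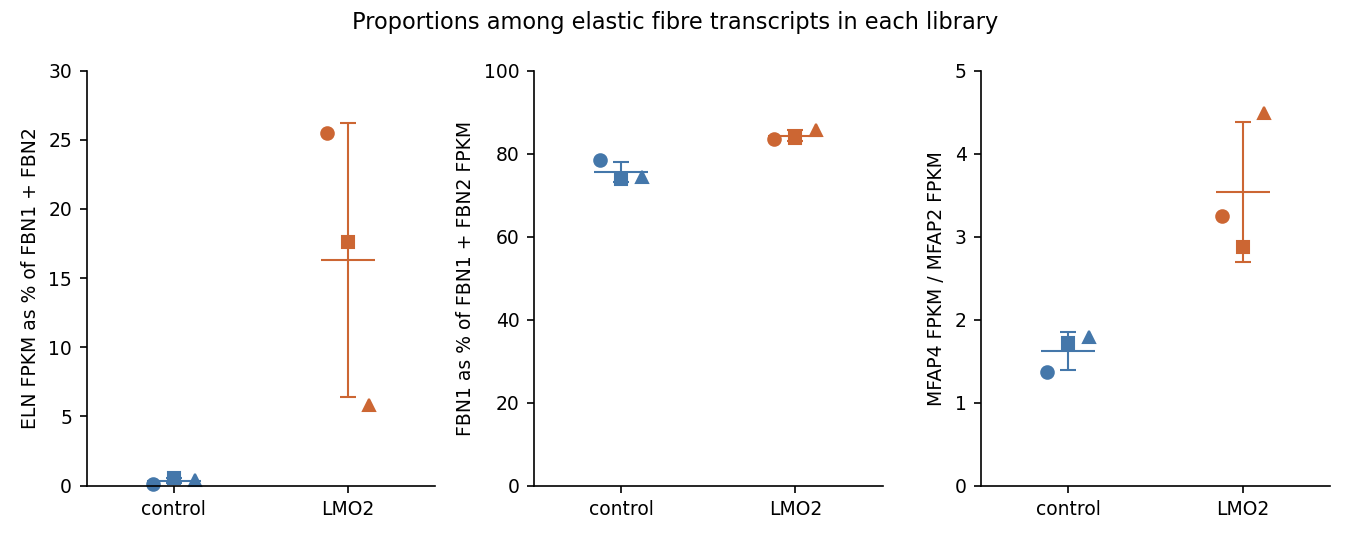
Ratios between elastic fibre transcripts in each library, by group and replicate (same symbols as for the FPKM plot), with the mean and SD of 3 libraries. ELN as a percentage of fibrillin FPKM ran from 5.80 to 25.5 in U87MG-LMO2 and below 1 in every control, the FBN1 share from 83.5 to 85.7 against 73.8 to 78.4, and the MFAP4 to MFAP2 ratio from 2.87 to 4.49 against 1.37 to 1.79.

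The short fibulins link tropoelastin to the microfibril and to lysyl oxidases. FBLN5 (chr14:91869412-91947987), which binds tropoelastin and lysyl oxidase-like 1, fell. It had 46, 42 and 32 expected counts in U87MG-control replicates 1 to 3 and 21, 20 and 23 in U87MG-LMO2 replicates 1 to 3. The deeper U87MG-LMO2 libraries held fewer reads than any control, and they lay close together at 1.28 to 1.39 CPM against 2.42 to 3.99 CPM. The log2 fold change was -1.22 (SE 0.26), or 0.428-fold, and was called lower (edgeR adjusted p = 0.0287). The call was lost in 5 of the 6 fits that left out 1 library, with adjusted p between 0.0692 and 0.103 without any 1 of U87MG-control replicates 1 to 3, and of 0.104 and 0.0552 without U87MG-LMO2 replicates 1 and 2. Over all genes tested, leaving out U87MG-control replicate 1, 2 or 3 left 46, 56 and 42 called lower, against 443 with all libraries. Leaving out U87MG-LMO2 replicate 1 or 2 left 48 and 304. The direction of FBLN5 was kept in all 13 alternatives tried.

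EFEMP2 (chr11:65866441-65873592), which encodes fibulin-4 and is needed to bring lysyl oxidase to elastin, did not follow FBLN5. It had 137.5, 147.8 and 134.2 CPM in U87MG-control and 154.7, 146.1 and 232.1 CPM in U87MG-LMO2. The groups overlapped, and the higher U87MG-LMO2 mean came largely from replicate 3. Its log2 fold change of 0.35 (SE 0.17) was not called (edgeR adjusted p = 0.245). EFEMP2 FPKM was 46.0, 63.9 and 73.6 times FBLN5 FPKM in U87MG-control and 159, 141 and 207 times in U87MG-LMO2, so EFEMP2 made up nearly all of the measured fibulin transcript in both groups. EFEMP1, which encodes fibulin-3, had 1 count in U87MG-control replicate 2 and none in the other 5 libraries, and it was not tested. A count of 0 allows up to 3 counts, or 0.181 to 0.260 CPM in these libraries, which covers counting error only.

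The microfibril-associated genes bind or decorate the scaffold. MFAP4 (chr17:19383442-19387240), which encodes a secreted fibrinogen-domain protein that binds elastin and fibrillin microfibrils, rose. It had 833, 1093 and 1006 expected counts in U87MG-control replicates 1 to 3 and 2755, 1983 and 4032 in U87MG-LMO2 replicates 1 to 3. The controls were tight and all 3 U87MG-LMO2 libraries lay above them, with replicate 3 the highest, as it was in CPM for all 7 tested partners. In FPKM, MFAP2 was 26.67 in U87MG-LMO2 replicate 3 against 27.96 in replicate 1, and FBLN5 was 0.52 in both replicates 2 and 3. The mean of MFAP4 went from 76.1 ± 3.78 to 182.1 ± 55.2 CPM (SD, n = 3 each), a log2 fold change of 1.26 (SE 0.19) or 2.39-fold (edgeR adjusted p = 0.0114), at rank 232 from the top of all genes tested. The call was lost without U87MG-control replicate 1 (adjusted p = 0.0686), replicate 2 (0.0549) or replicate 3 (0.0654), while the log2 fold change stayed at 1.22 to 1.30. Those 3 fits called 123, 123 and 102 genes higher over all genes tested, against 760 with all libraries. Genes on the opposite strand overlap several partners, again counted over whole genes with their introns. MAPK7 overlaps the MFAP4 gene by 103 bases, SLC27A6 the FBN2 gene by 121173 and AL049569.1 the MFAP2 gene by 1910. MUS81 overlaps the EFEMP2 gene by 1213 and the pseudogene HADHAP2 the MFAP5 gene by 263. The same limit on strand applies to reads from exons within these overlaps only.

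MFAP2 (chr1:16974502-16980835), which encodes the microfibril glycoprotein MAGP-1, was not called. It had 31.9, 27.9 and 25.7 CPM in U87MG-control and 31.4, 28.4 and 32.2 CPM in U87MG-LMO2. The ranges overlapped and the log2 fold change was 0.11 (SE 0.12, edgeR adjusted p = 0.622). The ratio of MFAP4 to MFAP2 FPKM was 1.37, 1.72 and 1.79 in U87MG-control and 3.25, 2.87 and 4.49 in U87MG-LMO2. MFAP5 (chr12:8637346-8662888), which encodes the related MAGP-2, was scarce, with 5.65, 9.55 and 6.57 expected counts in U87MG-control and 11.23, 11.13 and 16.69 in U87MG-LMO2. Its groups overlapped in CPM and not in FPKM, and its log2 fold change of 0.45 (SE 0.34) was not called (edgeR adjusted p = 0.449).

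**Figure D4:**
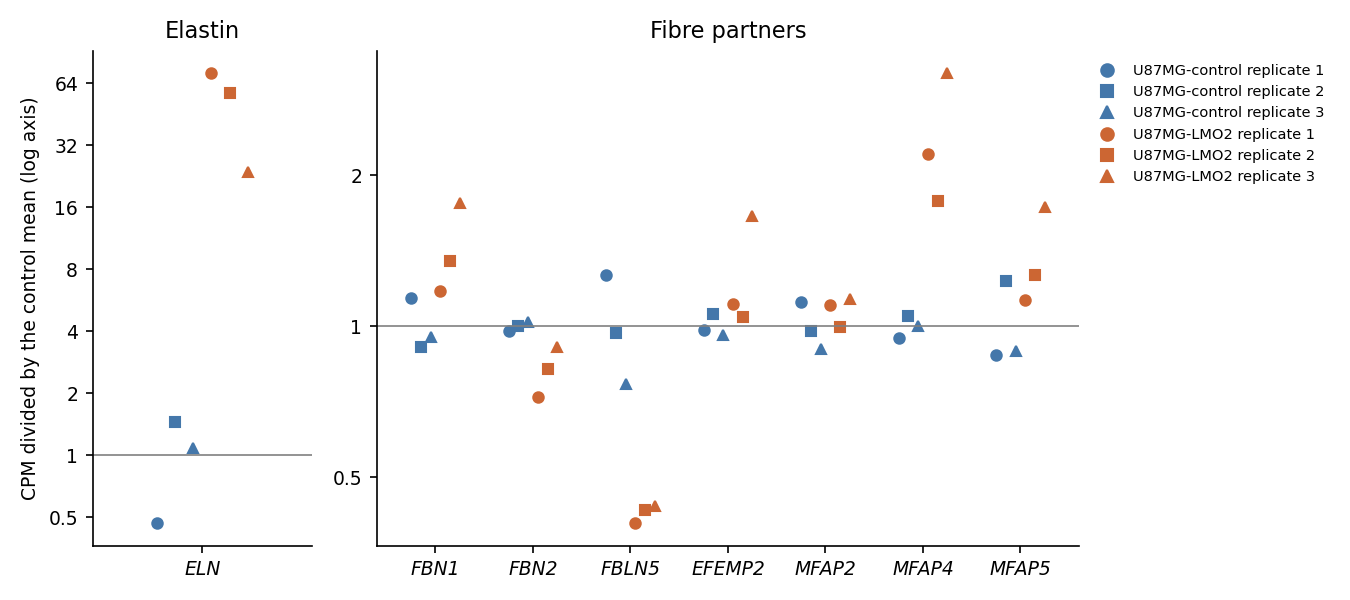
CPM of each tested gene divided by its own mean in U87MG-control, per library (log axes with different ranges for ELN and for the partners). ELN stood at 23.7 to 71.5 times its control mean in U87MG-LMO2, MFAP4 at 1.78 to 3.19 times and FBLN5 at 0.405 to 0.439 times. In CPM, U87MG-LMO2 replicate 3 was lowest of its group for ELN and highest for all 7 tested partners. In FPKM it was not the highest for MFAP2 and shared the highest value for FBLN5.

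Ordered by FPKM, which is per length, the U87MG-control libraries had EFEMP2 at 70.5 ± 3.74 and FBN1 at 64.8 ± 7.88 (SD, n = 3), whose ranges overlapped, then MFAP4 at 41.0, MFAP2 at 25.5, FBN2 at 20.8 and FBLN5 at 1.20, each apart from its neighbours. ELN at 0.300 and MFAP5 at 0.197 came near the end, and their ranges overlapped. In U87MG-LMO2 the 3 leading genes, MFAP4 at 94.3 ± 23.8, FBN1 at 89.4 ± 14.1 and EFEMP2 at 86.2 ± 18.7, overlapped with each other. MFAP2 followed at 26.6, and FBN2 at 16.5 and ELN at 16.3 could not be separated. FBLN5 at 0.510 and MFAP5 at 0.273 were the lowest of the tested genes. ELN made up 0.0560%, 0.192% and 0.157% of the summed FPKM of the 9 measured genes in U87MG-control and 7.48%, 6.23% and 1.84% in U87MG-LMO2. Over the partners together the sum went from 232.1, 223.9 and 215.7 FPKM to 289.4, 275.3 and 376.8 FPKM, a ratio of means of 1.40. The groups did not overlap, beside 17.5% of single genes that lay wholly above the controls in CPM. The sum was carried by MFAP4, FBN1 and EFEMP2, of which only MFAP4 was called. The means of FBN2 and FBLN5 were lower, so the sum does not show the partners rising together.

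The rest of the pathway was read from a list of 53 other genes of elastic fibre assembly, binding and turnover, of which 50 had a line and 41 were tested. In it 8 genes were called higher and 2 lower, beside 4.72% and 2.75% of all genes, and the median log2 fold change was 0.12. Of the 8 higher genes, 4 belonged to crosslinking and secretion, where 6 were tested. LOXL3 (log2 fold change 1.15, SE 0.13, edgeR adjusted p = 0.00430), LOXL1 (0.81, SE 0.17, adjusted p = 0.0317) and LOXL2 (0.78, SE 0.09, adjusted p = 0.00448) are lysyl oxidase-like enzymes that crosslink elastin and collagen. FKBP10 (0.59, SE 0.12, adjusted p = 0.0291) is a chaperone of tropoelastin and collagen in the endoplasmic reticulum. LOXL1 had the highest FPKM of these, and it stood at 450, 469 and 466 CPM in U87MG-control and 738, 630 and 1057 CPM in U87MG-LMO2. LOX, the founding lysyl oxidase, was not called (0.49, SE 0.16, adjusted p = 0.0964).

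The latent TGF-beta binding proteins, which share the fibrillin domain plan, split. LTBP3 was higher (0.52, SE 0.13, edgeR adjusted p = 0.0422) and LTBP1 lower (-0.73, SE 0.16, adjusted p = 0.0340), with LTBP1 at 187, 132 and 140 CPM in U87MG-control against 77.2, 102 and 98.0 in U87MG-LMO2. THSD4, an ADAMTS-like protein that promotes fibrillin-1 assembly, was also lower (-0.92, SE 0.14, adjusted p = 0.0114). Among the proteases that can cut elastin or activate those that do, MMP14 (0.73, SE 0.11, adjusted p = 0.0116) and MMP2 (0.62, SE 0.13, adjusted p = 0.0285) were higher. ITGAV, the alpha-v integrin chain that binds fibrillins and fibulin-5, was higher too (0.47, SE 0.10, adjusted p = 0.0308). The genes that were the most abundant of their role and not called were MFAP1 (-0.33, edgeR adjusted p = 0.395), MMRN2 (0.14, adjusted p = 0.568), ADAMTSL1 (0.12, adjusted p = 0.648) and CTSA (0.20, adjusted p = 0.617). ADAMTSL1 shares its role with THSD4, and CTSA with ITGAV. MFAP1 was listed by its MFAP name, and a part of its product in elastic fibres was not tested. ADAMTSL1 and CTSA changed sign under some settings. LOXL2 and LOXL3 were called in all 13 alternatives, MMP14 in 11, THSD4 in 10, LOXL1 and MMP2 in 9, LTBP1, LTBP3 and FKBP10 in 8, and ITGAV in 5. With the replicate block the calls of FKBP10 (adjusted p = 0.0546), LTBP3 (0.0703), LTBP1 (0.0739) and ITGAV (0.0809) were lost, and ITGAV was not called in either limma fit on FPKM. Leaving out U87MG-control replicates 1, 2 and 3 left 123, 123 and 102 of all genes tested called higher, against 760 with all libraries. Of the listed genes it left 3, 2 and 2 higher and 0, 0 and 1 lower. Leaving out U87MG-LMO2 replicates 1, 2 and 3 left 3, 7 and 10 of the listed genes higher and 0, 2 and 4 lower. In the edgeR fits with 0 lower, 3 to 4 of the genes were lower at an unadjusted p under 0.05.

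**Figure D5:**
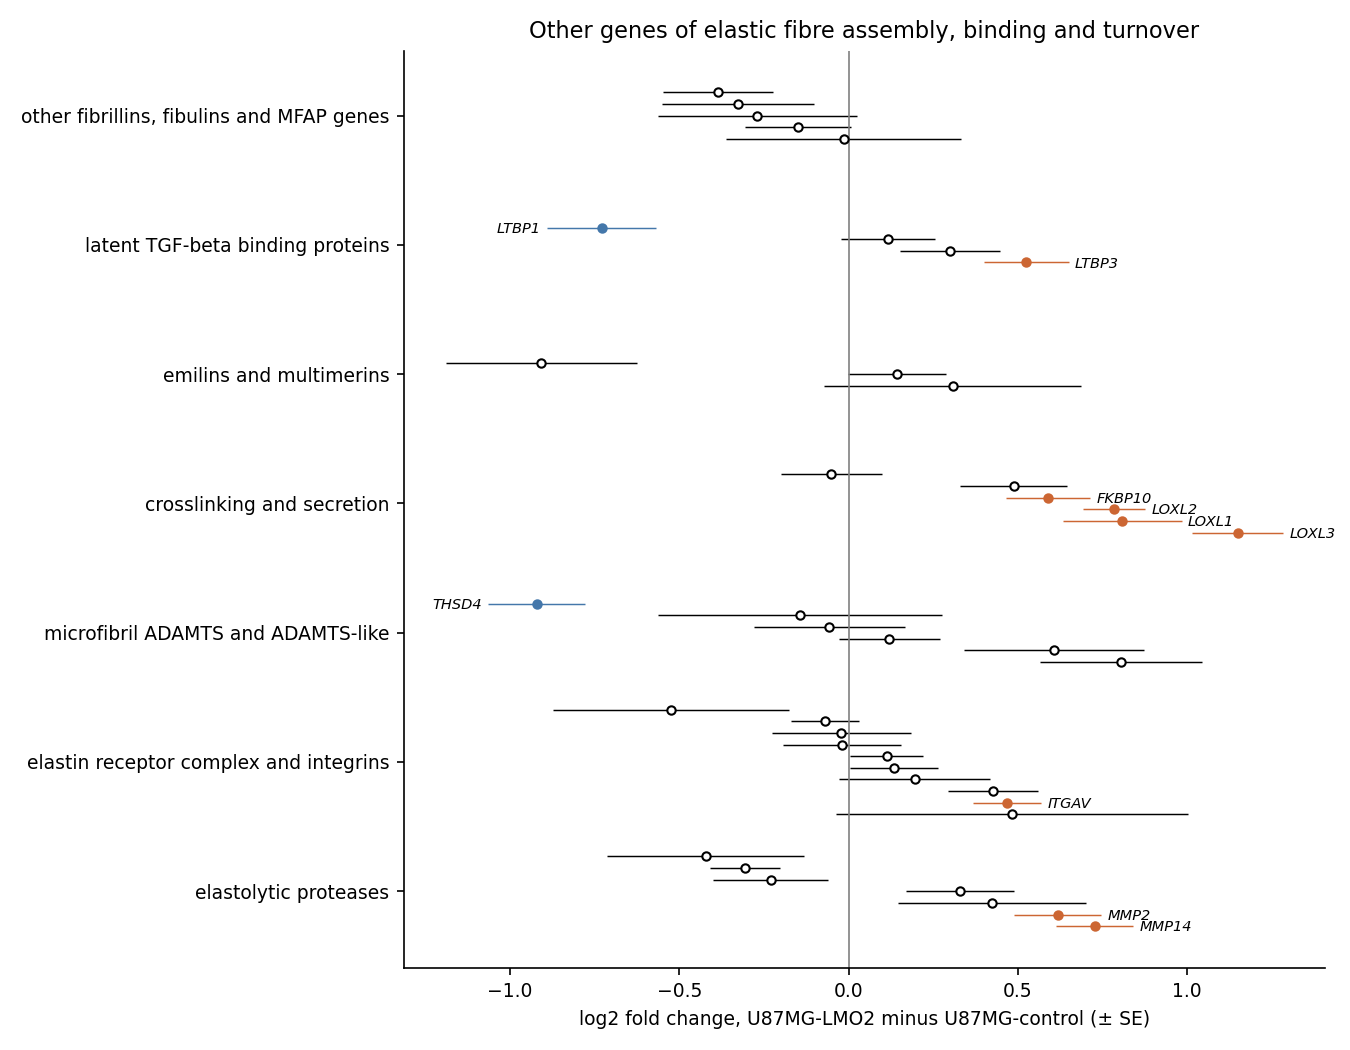
Fitted log2 fold change (U87MG-LMO2 minus U87MG-control, bars of 1 SE) of the 41 tested genes of elastic fibre assembly, binding and turnover, by role. Filled points were called (orange higher, 8 genes, and blue lower, 2 genes) and open points were not, with 4 of the 8 higher genes in the crosslinking and secretion row.

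Markers of cell types that make elastic fibres differed by type. All 6 tested fibroblast markers had a positive log2 fold change, beside a median of -0.01 over all genes tested. The tested smooth muscle markers went in both directions. The summed FPKM of 8 fibroblast markers was 311 to 329 in U87MG-control and 527 to 578 in U87MG-LMO2. COL1A1 (log2 fold change 1.02) and COL1A2 (0.69) carried it. With PDGFRB (0.93) they were the 3 called higher of 6 tested, beside 4.72% of all genes. COL3A1 (1.15, edgeR adjusted p = 0.0678), LUM (1.81, adjusted p = 0.0799) and DCN (1.54, adjusted p = 0.253) were tested and not called. In CPM, COL3A1 and LUM lay wholly above the controls, beside 17.5% of all genes, and DCN overlapped. LUM had 60, 46 and 211 expected counts and DCN 19, 18 and 79 in U87MG-LMO2 replicates 1 to 3. THY1, a defining fibroblast surface marker, was at or under 1 count in every library. The 6 smooth muscle markers summed to 138 to 149 FPKM in U87MG-control and to a lower 108 to 117 in U87MG-LMO2. SMTN and ACTA2 carried that sum. Of 5 tested, CNN1 was called higher (1.08) and ACTA2 lower (-0.81), beside 4.72% and 2.75% of all genes. MYH11 (0.12), TAGLN (0.88) and SMTN (-0.15) were not called, and DES had 3 counts or fewer. Endothelial markers summed to at most 2.35 FPKM with CDH5 at 1 count or fewer. Immune markers summed to 213 to 284 FPKM and 158 to 283 FPKM, nearly all from CD68, with CD3E at 1 count or fewer. The part of these markers in the changes of ELN, MFAP4 and FBLN5 was not tested, and in bulk RNA a change in the share of expressing cells and a change in RNA per cell cannot be told apart.

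The genes nearest to ELN in pattern over the 6 libraries were found by the root mean square difference between log2 CPM profiles (prior count 2), each centred on its own mean. They were LOC100132287 (0.767), DLX5 (0.931), CEMIP (1.08), IGFBP4 (1.10) and KRTAP1-5 (1.10), and no fibre partner was among the 5. CEMIP, a hyaluronan-degrading protein, came nearest of those expressed in every library, with 86, 351 and 308 expected counts in U87MG-control and 3874, 2670 and 2024 in U87MG-LMO2. As for ELN, its lowest library in each group was control replicate 1 and LMO2 replicate 3. IGFBP4, which binds insulin-like growth factors, had 41, 41 and 47 against 690, 812 and 732. DLX5, a homeobox transcription factor, had 0 counts in every control and 44.97, 27 and 25 in U87MG-LMO2. LOC100132287 had 0 counts in every control and 44.94, 105.39 and 51.21 in U87MG-LMO2, and KRTAP1-5, one of the keratin-associated protein family, had 2, 3 and 1 against 48.95, 86 and 81.92. Whether reads of either were shared with similar genes was not tested. Over 2 groups this measure mainly ranks genes by the size of their difference, and the distances of genes at 0 depend on the prior count.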

How the data were processed

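Total RNA of 6 libraries was sequenced by a service company. Per library, the authors deposited an expected count per gene (estimated reads, not normalized, need not be whole), the gene length used, and an FPKM value scaled to that length and to depth. Bowtie2, BWA and GRCh38.p12 are named in the submitters' processing notes without a role, and the counting program and versions are not given in the sources used here. The authors' comparison table also holds group means in FPKM, a log2 ratio, a direction and a probability. Its means served only to check the libraries, and its comparison columns were not used. A gene with no line was taken as 0 counts. The table of U87MG-LMO2 replicate 3 had 3 damaged lines, so 142 genes, with 0.35% of the control counts and none of the members, were left out. All 27257 control means and 27127 LMO2 means were matched within 0.006 FPKM. One of the genes left out is the marker GFAP.

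Expected counts were rounded and tested with edgeR 4.0.16 (filterByExpr, TMM, glmQLFit and glmQLFTest, 2-sided, group only) in R 4.3.3, with Benjamini-Hochberg adjustment over 16092 genes and calls under 0.05. The test was tested on simulated data. CPM used TMM-adjusted library sizes. Python 3.11.15 with pandas 2.3.3, numpy 2.4.6 and matplotlib 3.10.9 made summaries and plots. Symbols were taken from RefSeq by gene ID and matched 89.6% of genes. Gene positions and overlaps came from GENCODE v29, and ELN coding sequence from its longest annotated coding transcript.

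The members and lists were chosen with earlier results of these data known. The genes named are the members, LMO2, every called gene and the most abundant gene of each role of the other list, the markers, and the 5 genes nearest to ELN; LOX was named outside that rule after its values were seen. Other settings tried were upper-quartile scaling, DESeq2 1.42.0, all genes with any count, a minimum of 10 counts per library, limma 3.58.1 on log2(FPKM + 1) and log2(FPKM + 0.1), a replicate block, and leaving out each library in turn. Libraries of 11428432 to 17892955 counts limit precision for genes with few reads, and counting limits do not cover other error.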

Additional observations from a re-analysis of the deposited data

How the results depend on the processing

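ELN, chosen on this comparison, is described without a test, and its log2 fold change was 3.59 to 5.99 in the 12 alternatives that could be fitted (5.30 to 5.99 when 1 library was left out). LMO2 was called in the 12 that could be fitted (7.67 to 10.0, and 9.04 to 10.0). A minimum of 10 counts per library removed ELN, LMO2 and MFAP5, so it gave no value for them. Of the partners, DESeq2 and the fit with no filter each called 2 higher, MFAP4 and FBN1, and leaving out 1 library gave 0 to 1 higher and 0 to 2 lower. Of the other 41 genes, leaving out 1 library gave 2 to 10 higher and 0 to 4 lower. Where edgeR called 0 after leaving out a library, 1 to 2 partners in that direction and 3 to 4 of the other genes had an unadjusted p under 0.05.

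Same-numbered libraries showed no shared deviation from their group means over the genes tested, with correlations of -0.12, -0.00 and -0.04. The labels do not say how replicates were made, so these values cannot settle whether the libraries were paired. With the replicate block, edgeR called 0 partners lower (FBLN5 adjusted p = 0.0610, with 2 partners at an unadjusted p under 0.05), and 5 of the other genes were called higher and 1 lower. Over all genes tested the block left 387 higher and 189 lower, against 760 and 443 without it, DESeq2 gave 1006 and 691, limma on log2(FPKM + 1) 521 and 369, limma on log2(FPKM + 0.1) 512 and 363, and leaving out 1 library gave 102 to 1306 higher and 42 to 1102 lower. The highest counts came without U87MG-LMO2 replicate 3.

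ADAMTSL1, not called in any fit, was -0.11 on log2(FPKM + 1), -0.12 on log2(FPKM + 0.1) and -0.039 to 0.23 when 1 library was left out. CTSA ranged from -0.15 to 0.38 when 1 library was left out. The cause of these changes was not tested. Depth limits ELN in the controls, FBLN5, MFAP5 and EFEMP1, which had 46 counts or fewer in every control library.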
